A study of Oryza sativa with 8 samples.

Results

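Late embryogenesis abundant (LEA) proteins and dehydrins were followed at the transcript level in whole rice seedlings. The genes were taken from the deposited expression matrix by protein domain: Dehydrin (PF00257), LEA_4 (PF02987), LEA_1 (PF03760), LEA_3 (PF03242), LEA_5 (PF00477), SMP (PF04927) and LEA_2 (PF03168). Of 57403 genes in the matrix, 101 carried 1 of these 7 domains and none carried domains of more than 1 family. Levels are given as TPM, transcript abundances scaled for gene length and library size that can be compared between genes. Genes had to reach 1 TPM in 2 or more of the 8 libraries, which 73 of the 101 genes met, among 25281 genes in all. The 73 were 7 of 7 dehydrin genes, 4 of 4 LEA_4, 4 of 5 LEA_1, 3 of 6 LEA_3, 1 of 2 LEA_5, 3 of 7 SMP and 51 of 70 LEA_2 genes. Of the 28 genes left out, 12 were listed at 0 in all 8 libraries. The second-highest level was 0.57, 0.74 and 0.78 TPM in the 3 genes just outside the filter, LOC_Os01g64450, LOC_Os07g34050 and LOC_Os09g10620. It was 1.06, 1.07 and 1.07 TPM in the 3 just inside it, LOC_Os06g02840, LOC_Os08g23870 and LOC_Os01g53470. In 2 LEA_2 genes, LOC_Os05g40400 and LOC_Os03g62020, 1 TPM was reached only in both libraries of a single group, treated OE1 for LOC_Os05g40400 and untreated OE1 for LOC_Os03g62020. Both passed the filter only through the group in which they were high, so their differences between groups are given as a description. The dehydrin gene LOC_Os01g50700 reached 1 TPM only in OE1 libraries, so its difference between the genotypes is likewise a description.

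The seedlings were the line OE1, which overexpresses ScOYE3, and its wild type ZH11, each with 0.8 mM 2-nitroaniline for 8 h or untreated. ScOYE3 is an old yellow enzyme of yeast, a flavin-dependent reductase, and 2-nitroaniline is a nitroaromatic compound. All seedlings had grown for 2 weeks in hydroponic medium and were kept at 25 °C, and RNA came from pools of 20 whole plants. The 4 groups were treated OE1, untreated OE1, treated ZH11 and untreated ZH11, with 2 libraries each. OE1 is 1 transgenic line, and the promoter driving the transgene is not given in the sources used here. Nothing in the labels states that the 2 pools in a group were raised and handled separately, so the p-values reflect only how far these libraries lie apart, which may be technical.

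LEA proteins are hydrophilic, mostly unstructured proteins that accumulate late in seed development and in vegetative tissue under water deficit, cold or abscisic acid. They are known for protecting other proteins and membranes as water is lost. Dehydrins carry lysine-rich K segments, LEA_4 proteins (group 3 LEA proteins) carry repeats that fold into helices on drying, and LEA_2 proteins are a globular, less hydrophilic family that includes the NDR1/HIN1-like membrane proteins of plant defense. The rice RAB16 and RAB21 dehydrin genes are textbook abscisic acid and water stress responsive genes.

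The libraries held 42137208 to 56535764 reads after trimming. The second treated ZH11 library stood apart: its GC content was 52.04%, and relative to the mean of all libraries its median gene was -0.40 on the log2 scale among genes of up to 500 nt and 0.43 among genes over 2000 nt. Of the 73 genes, 4 were of up to 500 nt, 21 of over 500 to 1000 nt, 46 of over 1000 to 2000 nt and 2 were longer. The median difference between the 2 libraries of a group, over the 73 genes and without sign, was 0.14 in treated OE1, 0.12 in untreated OE1, 0.38 in treated ZH11 and 0.29 in untreated ZH11 on the log2 scale. The second treated and the second untreated ZH11 library had longer reads than the other 6, and no OE1 library did. Shoot markers (30 of 30 genes for chlorophyll-binding and Rubisco small subunit proteins past the filter) summed to 51400 and 51926 TPM in treated OE1, 64104 and 62631 in untreated OE1, 55744 and 48181 in treated ZH11 and 64621 and 64483 in untreated ZH11. Root markers (11 of 16 past the filter) summed to 653 and 603 TPM in treated OE1, 719.7 and 734 in untreated OE1, 611 and 881 in treated ZH11 and 599.7 and 608 in untreated ZH11. They were taken by their match to named root transporters, and some are described as other proteins. LOC_Os03g05390 alone held 52.5% of their sum. Markers of seed tissue (oleosin, caleosin and storage protein genes, 10 of 39 past the filter, 11 at 0 in all libraries) summed to 181 to 249 TPM. Of 22 rows described as the seed storage proteins glutelin or prolamin, 3 reached 1 TPM in any library, and the highest value was 4.84 TPM. LOC_Os05g02520, matched to the glutelin GLUD1 but described as a cupin domain protein, held 30.0% of the seed marker sum. In whole seedlings, a change in the number of cells of a type and a change in RNA per cell cannot be told apart.

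Levels differed widely within the families. The most abundant gene was the LEA_3 gene LOC_Os01g21250 at a mean of 239 TPM over the 8 libraries, followed by the dehydrin gene DHN1 (LOC_Os02g44870) at 188 TPM. The dehydrin gene RAB21 (LOC_Os11g26790) averaged 129.7 TPM and the LEA_4 gene LEA19 (LOC_Os05g46480) 107 TPM. In 5 LEA_2 genes the mean was at least 100 TPM. The other 5 dehydrin genes averaged 0.87 to 9.38 TPM, the 4 LEA_1 genes 0.64 to 5.18 TPM and the 3 SMP genes 1.08 to 5.74 TPM.

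The comparison of OE1 with ZH11 in untreated seedlings asks how the genotypes differed before any 2-nitroaniline was added. In all 7 dehydrin genes and in 3 of 4 LEA_4 genes both untreated OE1 libraries lay above both untreated ZH11 libraries, against 21.7% of all genes tested. The 7 include LOC_Os01g50700, which passed the filter only through libraries of OE1, the genotype in which it was high. The median log2 fold, OE1 over ZH11, was 0.79 for dehydrins and 0.95 for LEA_4 genes, beside 0.01 for all genes. Dehydrin transcripts summed to 429.7 ± 16.3 TPM in untreated OE1 and to 286 ± 11.2 TPM in untreated ZH11 (SD, n = 2 each), and LEA_4 transcripts to 189.5 ± 6.8 TPM in OE1 and to 91.2 ± 3.0 TPM in ZH11. A single gene, RAB16D, passed the call. Root markers summed to 719.7 and 734 TPM in untreated OE1, against 599.7 and 608 TPM in untreated ZH11, and with p under 0.05 before adjustment in limma 3 of 11 were higher and 0 lower. The most abundant, LOC_Os03g05390, had 333 and 349 TPM in untreated OE1, against 301 and 320 TPM in untreated ZH11. The next, LOC_Os03g01700, had 191 and 188 TPM in untreated OE1, against 113 and 106 TPM in untreated ZH11. NRAMP5 (LOC_Os07g15370) had 27.2 and 27.4 TPM in untreated OE1, against 19.3 and 18.5 TPM in untreated ZH11. Of the 11, 7 had log2 folds above 0 and 4 below, from -0.34 to 0.78. The part of root markers in the dehydrin and LEA_4 values was not tested.

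A gene was called where the adjusted p was under 0.05 and the log2 fold reached 1 in either direction, in a limma fit to log2(TPM + 1) of all 25281 genes with Benjamini-Hochberg adjustment. In untreated seedlings 0.396% of all genes were called higher in OE1 and 0.0475% lower, and of the 73 genes 1 was called higher and 0 lower. With p under 0.05 before adjustment, 12 of the 73 were higher and 0 lower, against 3.46% and 1.48% of all genes. Of these 12, 5 were dehydrin, 3 LEA_4 and 4 LEA_2 genes.

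**Figure D1:**
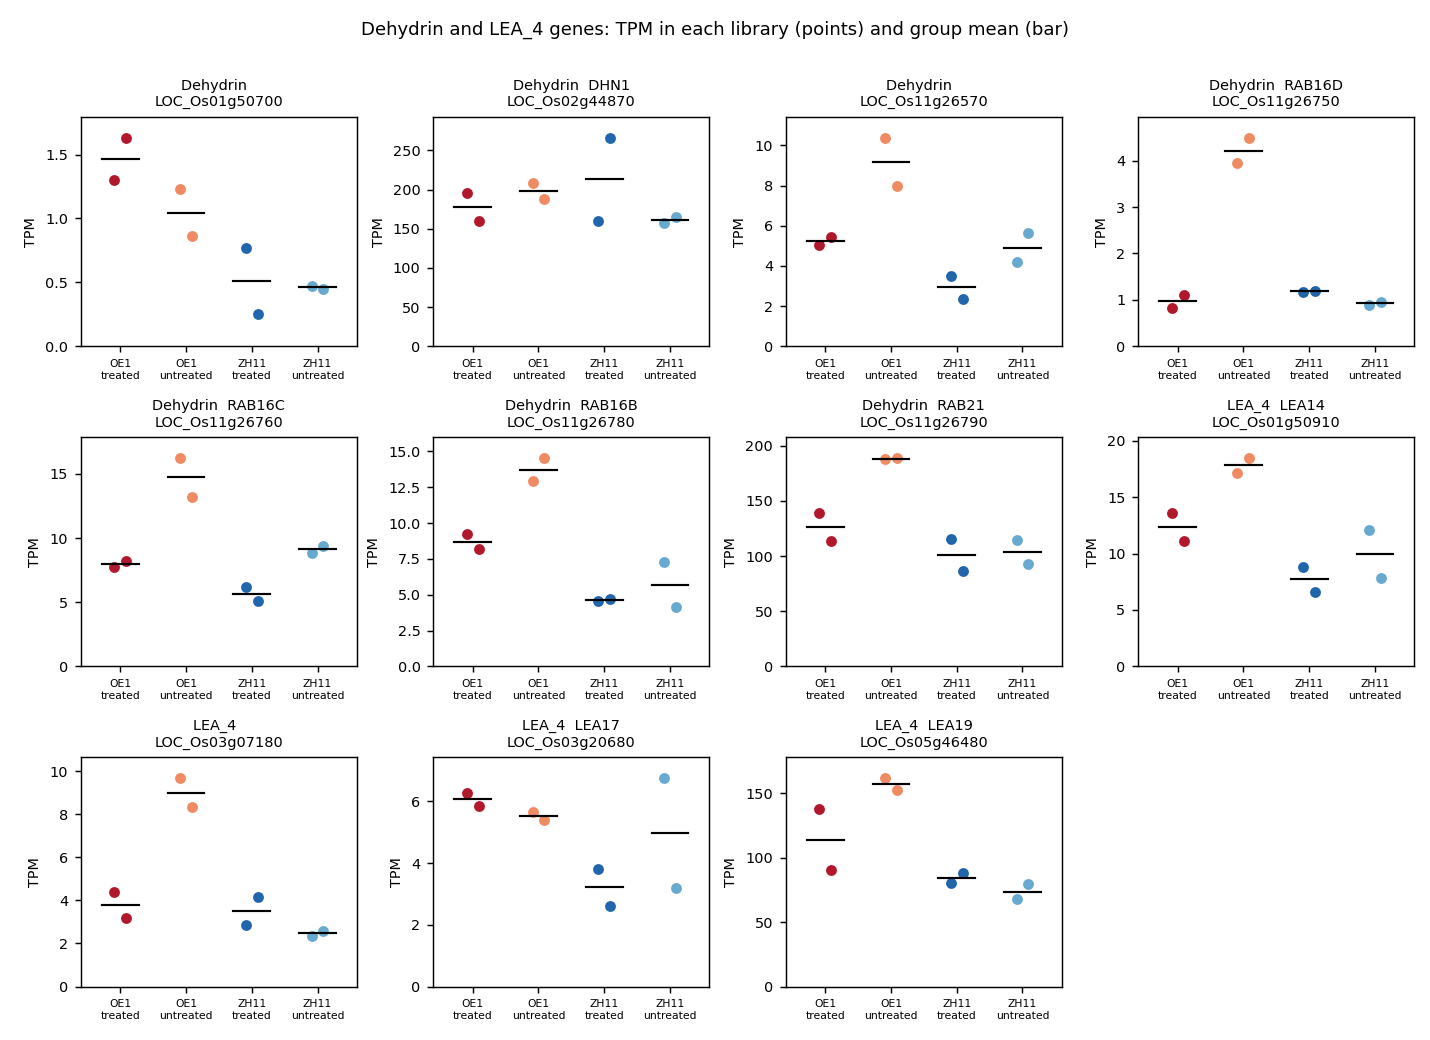
Level in TPM (vertical axes, from 0) of the 7 dehydrin and 4 LEA_4 genes in each of the 8 libraries, by group (horizontal axes). Points are libraries and bars are group means; RAB16D stands at 3.94 and 4.49 TPM in untreated OE1 and at 0.82 to 1.19 TPM in the other 6 libraries.

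RAB16D (LOC_Os11g26750), a RAB16 dehydrin, had 3.94 and 4.49 TPM in untreated OE1, against 0.90 and 0.95 TPM in untreated ZH11. Its log2 fold was 1.44 ± 0.21 (SE), with an adjusted p of 0.0448 in limma. This call did not hold under 11 of 20 alternatives, in which the adjusted p ran from 0.0102 to 0.573, and it ended without any 1 of the 4 untreated libraries (adjusted p 0.21 to 0.573) or without either treated OE1 library (0.126). With longer reads as a term in the fit its adjusted p was 0.106, and with a pseudocount of 0.1 it was 0.0881.

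RAB21, named for its response to abscisic acid and water stress, had 188 and 189 TPM in untreated OE1, against 115 and 92.4 TPM in untreated ZH11. Its log2 fold of 0.86 ± 0.20 had an adjusted p of 0.261. RAB16B (LOC_Os11g26780) had 12.9 and 14.5 TPM in untreated OE1, against 7.30 and 4.12 TPM in ZH11, a log2 fold of 1.18 ± 0.24 with an adjusted p of 0.198. In both genes the groups did not overlap, and neither passed the call.

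RAB16C (LOC_Os11g26760) had 16.2 and 13.2 TPM in untreated OE1, against 8.87 and 9.40 TPM in ZH11. LOC_Os11g26570, a dehydrin gene with no gene name in the files, had 10.4 and 8.00 TPM in OE1, against 4.19 and 5.64 TPM in ZH11. Their log2 folds were 0.63 ± 0.18 and 0.79 ± 0.23, with adjusted p of 0.527 and 0.589. These 5 genes all lie on chromosome 11, and RAB16D, RAB16C, RAB16B and RAB21 are neighbours in locus number. As close paralogs they may share reads, so the division of reads among them is uncertain.

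The other 2 dehydrin genes had the smallest folds of the family. DHN1 had 209 and 188 TPM in untreated OE1, against 157 and 165 TPM in untreated ZH11, a log2 fold of 0.30 ± 0.24 (adjusted p 1). LOC_Os01g50700, which also carries a DnaJ domain, had 1.23 and 0.86 TPM in OE1, against 0.47 and 0.45 TPM in ZH11, a log2 fold of 0.48 ± 0.26 (adjusted p 1).

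Among the LEA_4 genes, LEA19, a group 3 LEA protein, had 162 and 153 TPM in untreated OE1, against 67.9 and 79.8 TPM in untreated ZH11. Its log2 fold was 1.08 ± 0.21 with an adjusted p of 0.157. LOC_Os03g07180, another group 3 LEA gene, had 9.67 and 8.32 TPM in OE1, against 2.36 and 2.57 TPM in ZH11, a log2 fold of 1.53 ± 0.23 that missed the call at an adjusted p of 0.0517. LEA14 (LOC_Os01g50910) had 17.2 and 18.5 TPM in OE1, against 12.1 and 7.80 TPM in ZH11 (0.81 ± 0.24, adjusted p 0.572). In LEA17 (LOC_Os03g20680) the groups overlapped, with 5.64 and 5.40 TPM in OE1, against 6.75 and 3.19 TPM in ZH11.

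The authors' deposited table for untreated OE1 over untreated ZH11 lists 175 genes, 3 of them among the 73. In the authors' deposited table LOC_Os03g07180 has a log2 fold of 1.85 with an adjusted p of 6.37e-08, from 343 and 288 estimated counts in OE1, against 74.8 and 74.4 in ZH11. For LEA19 the authors' deposited table gives 1.12 and 3.64e-14, from 2390 and 2238 estimated counts in OE1, against 901 and 910 in ZH11. For RAB16B the authors' deposited table gives 1.27 and 0.0343, from 198 and 220 estimated counts in OE1, against 100 and 49 in ZH11. RAB16D is not in that list, and the test behind it is not given in the sources used here.

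No gene of the other families was called in untreated seedlings. Among the 22 genes outside LEA_2, 17 had both untreated OE1 libraries above both ZH11 libraries and 0 had both below, against 21.7% and 19.6% of all genes. The 17 include LOC_Os01g50700, which passed the filter only through OE1 libraries. EMP1 (LOC_Os05g28210), the Em protein of embryos and the single LEA_5 gene past the filter, had 1.72 and 2.08 TPM in OE1, against 1.61 and 1.32 TPM in ZH11, a log2 fold of 0.23 ± 0.22 (adjusted p 1). Of 51 LEA_2 genes 19 were higher and 10 lower without overlap, and the median log2 fold was 0.12. The 19 include LOC_Os03g62020, which passed the filter only through untreated OE1. With longer reads as a term, the median over the 73 genes was 0.12 (all genes 0.06), beside 0.21 without it. The dehydrin and LEA_4 medians were 0.68 and 0.88 with that term, the LEA_1 median 0.10 (0.46 without it), the LEA_3 median -0.15 (0.36) and the SMP median -0.28 (0.005). Without the second untreated ZH11 library the median over the 73 genes was 0.10 (all genes 0.02), and without the first it was 0.32 (all genes -0.01). Genes described as glutelin or prolamin reached at most 4.84 TPM in any library. LOC_Os05g02520, matched to GLUD1, had 71.05 and 74.35 TPM in untreated OE1, against 74.58 and 76.88 TPM in untreated ZH11. Seed markers summed to 244 and 249 TPM in untreated OE1, against 237 and 241 TPM in untreated ZH11. Their part in the result was not tested.

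**Figure D2:**
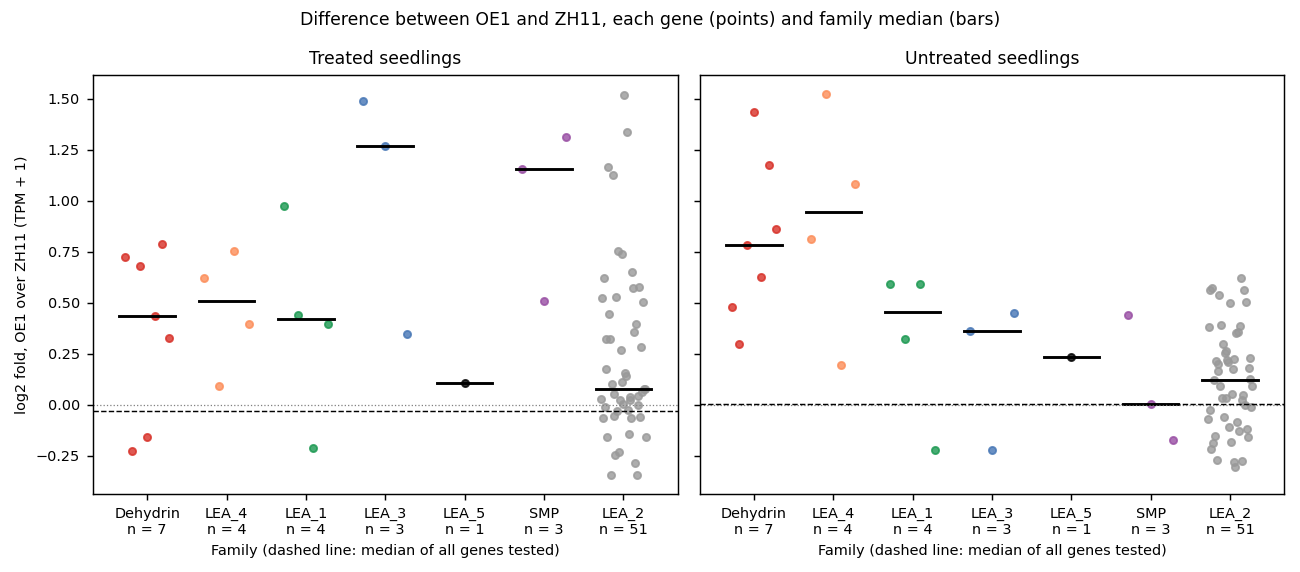
Log2 fold of OE1 over ZH11 (vertical axis, on TPM + 1) for each of the 73 genes in treated (left) and untreated (right) seedlings, by family (horizontal axis). Points are genes, bars are family medians and the dashed line is the median of all genes tested; in untreated seedlings all 7 dehydrin and all 4 LEA_4 genes lie above 0.

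In treated seedlings the 4 largest folds, OE1 over ZH11, were in LEA_2, LEA_3 and SMP genes. The family medians were 0.44 for dehydrins, 0.51 for LEA_4, 0.42 for LEA_1, 1.27 for LEA_3, 1.16 for SMP and 0.08 for LEA_2 genes. With the gradient in gene length taken out of each library they were 0.18 for dehydrins, 0.31 for LEA_4, 0.13 for LEA_1, 0.98 for LEA_3, 1.03 for SMP and -0.02 for LEA_2 genes. Without the second treated ZH11 library the LEA_1 median was 0.03, with 2 genes above 0 and 2 below. Of all genes 0.799% were called higher in treated OE1 than in treated ZH11 and 0.154% lower, and of the 73 genes 1 was called higher and 0 lower. With p under 0.05 before adjustment, 15 of the 73 genes stood higher and 0 lower, against 9.83% and 5.25% of all genes. Both treated OE1 libraries lay above both treated ZH11 libraries in 35 of the 73 genes and below in 4, against 23% and 19.3% of all genes. LOC_Os05g40400, which passed the filter only through treated OE1, is among the 15 and the 35. LOC_Os01g50700, which passed it only through OE1 libraries, is also among the 35. The median over the 73 genes was 0.27, beside -0.03 for all genes, and with the length gradient taken out it was 0.06, beside -0.01. The authors' deposited table for treated OE1 over treated ZH11 lists 260 genes, 0 of them among the 73.

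The called gene was LOC_Os05g40400, a LEA_2 gene with no named function in the files. It had 2.2 and 3.0 TPM in treated OE1, against 0.28 and 0.22 TPM in treated ZH11, and 0.40 and 0.39 TPM in untreated OE1, against 0.44 and 0.74 TPM in untreated ZH11. The treated OE1 libraries were the only ones of the 8 above 1 TPM, so the gene passed the filter only through the group in which it was high, and its call is a description. Its log2 fold in treated seedlings was 1.52 ± 0.24 with an adjusted p of 0.0427 in limma. The call did not hold under 14 of 20 alternatives, with adjusted p from 0.00933 to 0.473. It ended without any 1 library other than the first treated ZH11 library (adjusted p 0.063 to 0.383 without each of the other 7), and with the length gradient removed its fold was 1.22 at an adjusted p of 0.081.

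All 3 SMP genes, which carry the seed maturation protein domain, had both treated OE1 libraries above both treated ZH11 libraries, against 23% of all genes. None of the 3 was called. LOC_Os03g06360, matched to the cotton LEA protein D-34, had 5.12 and 4.77 TPM in treated OE1, against 2.25 and 1.19 TPM in treated ZH11, a log2 fold of 1.16 ± 0.24 with an adjusted p of 0.0873. LOC_Os10g29570 was listed at 0.95 and 5.03 TPM in treated OE1, against 0.90 and 0 TPM in treated ZH11. Its groups were apart only by 0.95 against 0.90 TPM, both under the 1 TPM of the filter. LOC_Os09g28860 had 6.55 and 5.78 TPM in OE1, against 5.56 and 2.84 TPM in ZH11 (0.51 ± 0.28, adjusted p 0.383). In each of the 3 the second treated ZH11 library was the lowest of the 4, and without it the SMP median was 0.85 in place of 1.16.

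LEA_3 proteins include the mitochondrial SAG21 of Arabidopsis, which LOC_Os01g21250 matches. That gene, 282 nt long in the files, had 252 and 273 TPM in treated OE1, against 204 and 41.9 TPM in treated ZH11. In untreated seedlings it had 355 and 287 TPM in OE1, against 231 and 266 TPM in ZH11. The 41.9 TPM came from the second treated ZH11 library, in which the median gene of up to 500 nt was at -0.40 on the log2 scale. With the length gradient taken out the LEA_3 median in treated seedlings was 0.98 in place of 1.27. The part of gene length in the 41.9 TPM was not tested. LOC_Os12g32290 had 0.75 and 1.28 TPM in treated OE1, against 1.01 and 0.23 TPM in treated ZH11, and 0.95 and 1.2 TPM in untreated OE1, against 0.30 and 0.77 TPM in untreated ZH11. Without the second treated ZH11 library the LEA_3 median in treated seedlings was 0.27 in place of 1.27.

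Treatment with 2-nitroaniline called none of the 73 genes in either genotype. In OE1, all 5 dehydrin genes on chromosome 11 were lower in both treated libraries than in both untreated libraries, which 28.6% of all genes were. In ZH11 that held for 2 of these 5, RAB16C and LOC_Os11g26570, against 18.4% of all genes. The treatment comparison in OE1 uses the same 2 untreated OE1 libraries as the comparison of untreated OE1 with untreated ZH11. High values in those libraries alone would give both results, so they are not separate findings. Shoot markers summed to 51400 and 51926 TPM in treated OE1, against 64104 and 62631 TPM in untreated OE1. Root markers summed to 653 and 603 TPM in treated OE1, against 719.7 and 734 TPM in untreated OE1. With p under 0.05 before adjustment in limma 0 of 11 were higher and 3 lower. Of the 11, 2 had log2 folds above 0 and 9 below, from -1.05 to 0.32. LOC_Os03g01700 had 107 and 98.3 TPM in treated OE1, against 191 and 188 TPM in untreated OE1. NRAMP5 had 15.2 and 13.8 TPM in treated OE1, against 27.2 and 27.4 TPM in untreated OE1. The part of shoot and root markers in these values was not tested. The authors' deposited table for treated over untreated OE1 lists 531 genes, 4 of them among the 73, and that for treated over untreated ZH11 lists 115 genes, 0 of them among the 73. The call share over all genes was 0.127% higher and 0.115% lower in OE1, and 0.174% higher and 0.115% lower in ZH11. With p under 0.05 before adjustment in limma, 5 of the 73 were higher and 12 lower in OE1 (5.36% and 4.08% of all genes), and 1 was higher and 9 lower in ZH11 (5.42% and 7.25% of all genes).

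The groups did not overlap for 21 genes higher and 32 lower in OE1, against 23.8% and 28.6% of all genes. In ZH11 they did not overlap for 12 higher and 21 lower, against 15.9% and 18.4%. The treatment comparisons of the 2 genotypes share no library. Set side by side, 14 of the 73 genes were lower without overlap in both genotypes, against 8.5% of all genes, 4 were higher in both, against 6.38%, and 6 lay in opposite directions, against 4.81%. The 6 include LOC_Os05g40400 and LOC_Os03g62020, each of which passed the filter only through the OE1 group in which it was high. LOC_Os05g40400 is also among the 21 genes higher in OE1, and LOC_Os03g62020 among the 32 lower.

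**Figure D3:**
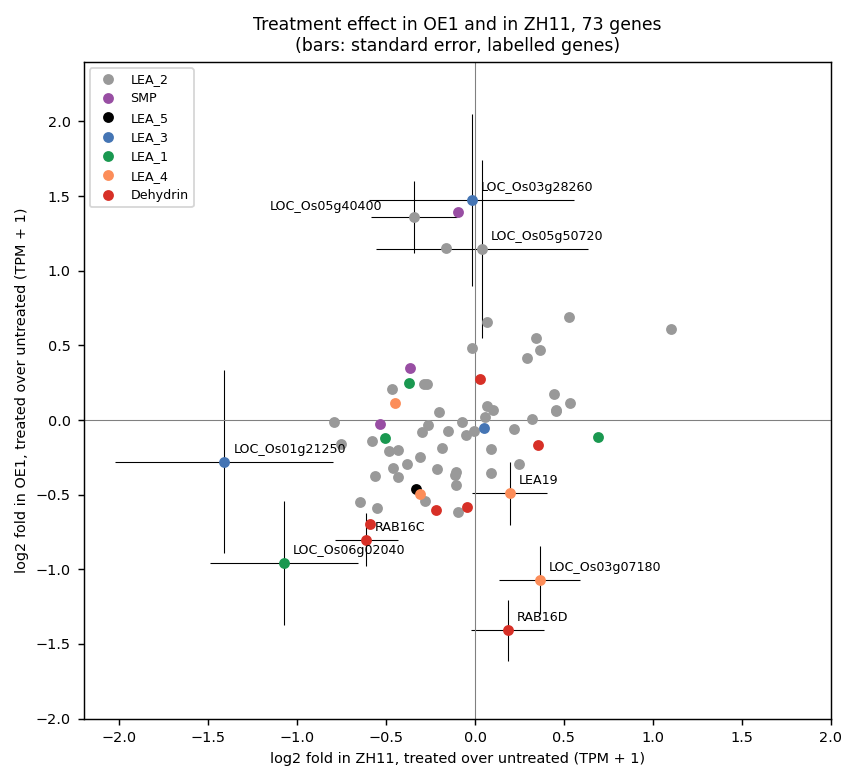
Log2 fold of treated over untreated (on TPM + 1) in OE1 (vertical axis) against that in ZH11 (horizontal axis) for the 73 genes, coloured by family. Bars are standard errors of the 9 labelled genes, which were chosen after their values were seen; RAB16D lies at -1.41 in OE1 and at 0.18 in ZH11.

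RAB16D had 0.82 and 1.11 TPM in treated OE1, against 3.94 and 4.49 TPM in untreated OE1, and 1.18 and 1.19 TPM in treated ZH11, against 0.90 and 0.95 TPM in untreated ZH11. Its log2 fold on treatment was -1.41 ± 0.21 in OE1 (adjusted p 0.0557) and 0.18 ± 0.21 in ZH11 (adjusted p 0.694). The difference of the 2 effects was -1.59 ± 0.29 with an adjusted p of 0.298 in limma. Of the treated OE1 libraries, 1 lay inside and 1 just below the range of the 4 ZH11 libraries. In the authors' deposited table for treated over untreated OE1 its log2 fold is -2.08 with an adjusted p of 0.00943, from 10 and 16 estimated counts in treated OE1, against 54.0 and 61 in untreated OE1.

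RAB21 had 139 and 113 TPM in treated OE1, against 188 and 189 TPM in untreated OE1, a log2 fold of -0.58 ± 0.20 (adjusted p 0.371). In ZH11 it had 116 and 86.1 TPM in treated seedlings, against 115 and 92.4 TPM in untreated seedlings. RAB16B had 9.22 and 8.17 TPM in treated OE1, against 12.9 and 14.5 TPM in untreated OE1 (-0.60 ± 0.24, adjusted p 0.49). In ZH11 it had 4.54 and 4.67 TPM in treated seedlings, against 7.30 and 4.12 TPM in untreated seedlings, which overlapped.

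RAB16C was lower in both treated libraries in each genotype, with 7.76 and 8.21 TPM in treated OE1, against 16.2 and 13.2 TPM in untreated OE1, and with 6.21 and 5.10 TPM in treated ZH11, against 8.87 and 9.40 TPM in untreated ZH11. Its log2 folds were -0.80 ± 0.18 in OE1 (adjusted p 0.157) and -0.61 ± 0.18 in ZH11 (adjusted p 0.242). LOC_Os11g26570 had 5.04 and 5.45 TPM in treated OE1, against 10.4 and 8.00 TPM in untreated OE1, and 3.51 and 2.36 TPM in treated ZH11, against 4.19 and 5.64 TPM in untreated ZH11. DHN1 had 196 and 159.5 TPM in treated OE1, against 209 and 188 TPM in untreated OE1, and 160.4 and 266 TPM in treated ZH11, against 157 and 165 TPM in untreated ZH11, so that its groups overlapped in both genotypes. LOC_Os01g50700 had 1.30 and 1.63 TPM in treated OE1, against 1.23 and 0.86 TPM in untreated OE1.

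Of the LEA_4 genes, LOC_Os03g07180 had 4.41 and 3.16 TPM in treated OE1, against 9.67 and 8.32 TPM in untreated OE1, and 2.86 and 4.14 TPM in treated ZH11, against 2.36 and 2.57 TPM in untreated ZH11. Its log2 folds were -1.07 ± 0.23 in OE1 (adjusted p 0.141) and 0.36 ± 0.23 in ZH11 (adjusted p 0.515), and their difference was -1.44 ± 0.32 (adjusted p 0.405). The authors' deposited table for treated over untreated OE1 gives this gene a log2 fold of -1.22 with an adjusted p of 6.46e-05. LEA19 had 138 and 90.2 TPM in treated OE1, against 162 and 153 TPM in untreated OE1, and 80.6 and 88.2 TPM in treated ZH11, against 67.9 and 79.8 TPM in untreated ZH11. LEA14 had 13.6 and 11.1 TPM in treated OE1, against 17.2 and 18.5 TPM in untreated OE1, and LEA17 had 6.27 and 5.85 TPM in treated OE1, against 5.64 and 5.40 TPM in untreated OE1.

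In the difference of the treatment effects, OE1 minus ZH11, 0 of the 73 genes were called, beside 0.0316% of all genes, 0.0277% higher and 0.00396% lower. With p under 0.05 before adjustment in limma, 3 were higher and 2 lower, against 3.86% and 2.59% of all genes. The 2 lower were RAB16D and LOC_Os03g07180. The 3 higher were all LEA_2 genes, among them LOC_Os05g40400, which passed the filter only through treated OE1. The dehydrin median was -0.39 and the LEA_4 median -0.44, beside -0.05 for all genes.

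**Figure D4:**
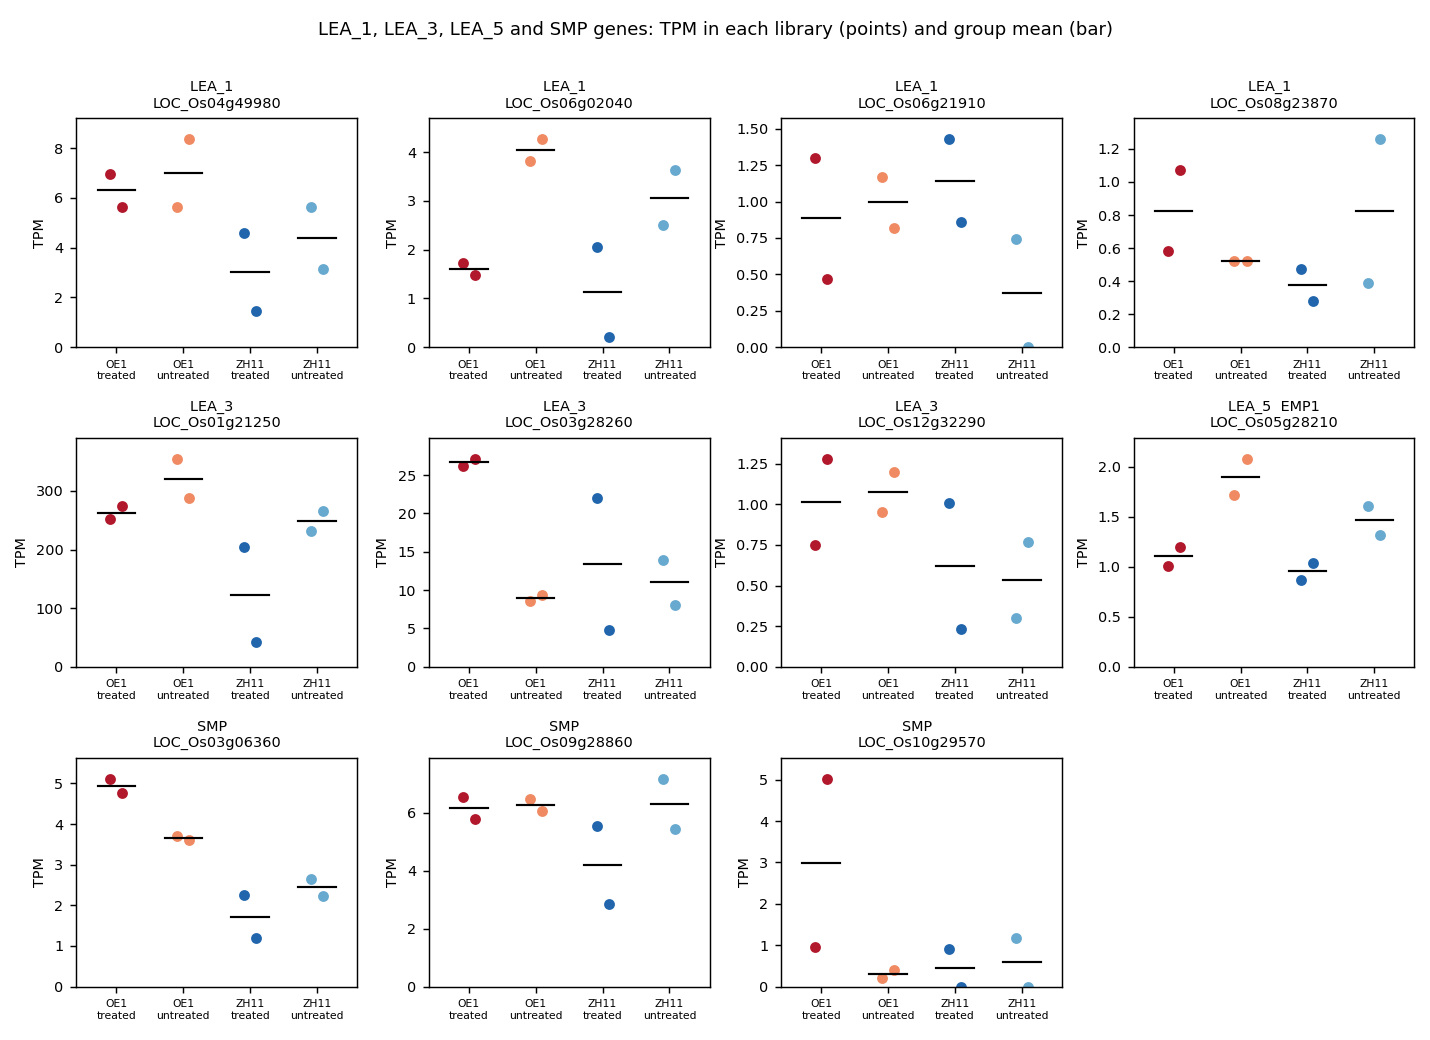
Level in TPM (vertical axes, from 0) of the 4 LEA_1, 3 LEA_3, 1 LEA_5 and 3 SMP genes in each of the 8 libraries, by group (horizontal axes). Points are libraries and bars are group means; LOC_Os03g28260 stands at 26.2 and 27.1 TPM in treated OE1.

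The LEA_3 gene LOC_Os03g28260 had 26.2 and 27.1 TPM in treated OE1, against 8.54 and 9.42 TPM in untreated OE1, a log2 fold of 1.47 ± 0.58 with an adjusted p of 0.475. In ZH11 its libraries overlapped, at 22.0 and 4.74 TPM in treated seedlings, against 14.0 and 8.02 TPM in untreated seedlings. The authors' deposited table for treated over untreated OE1 gives it a log2 fold of 1.6 with an adjusted p of 2.57e-06, from 198 and 241 estimated counts in treated OE1, against 72 and 80 in untreated OE1. SMP gene LOC_Os03g06360 had 5.12 and 4.77 TPM in treated OE1, against 3.71 and 3.61 TPM in untreated OE1. LOC_Os10g29570 was listed at 0.21 and 0.41 TPM in untreated OE1 and at 1.17 and 0 TPM in untreated ZH11.

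LEA_1 genes, of which all 4 past the filter had means under 6 TPM, were spread widely. LOC_Os06g02040, annotated as LEA protein 6, had 1.73 and 1.47 TPM in treated OE1, against 3.82 and 4.27 TPM in untreated OE1, and 2.05 and 0.20 TPM in treated ZH11, against 2.51 and 3.63 TPM in untreated ZH11. Its log2 folds on treatment were -0.96 ± 0.41 in OE1 (adjusted p 0.544) and -1.08 ± 0.41 in ZH11 (adjusted p 0.363). LOC_Os04g49980, annotated as LEA protein 18, ranged from 1.44 to 8.37 TPM over the libraries, LOC_Os06g21910 from 0 to 1.43 TPM and LOC_Os08g23870 from 0.28 to 1.26 TPM. EMP1 had 1.01 and 1.2 TPM in treated OE1, against 1.72 and 2.08 TPM in untreated OE1, and 0.87 and 1.04 TPM in treated ZH11, against 1.61 and 1.32 TPM in untreated ZH11.

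LEA_2 is the largest family and includes 22 genes annotated as NDR1/HIN1-like proteins, of which 18 passed the filter. The 51 genes past the filter had mean levels of 0.65 to 157 TPM with a median of 6.41 TPM. The means were at least 100 TPM for 5 of them, 10 to 100 TPM for 18, 1 to 10 TPM for 23 and under 1 TPM for 5. The most abundant were LOC_Os11g05860 and LOC_Os08g01220, both annotated as NDR1/HIN1-like, LOC_Os04g58850, likewise, and LOC_Os05g50710, annotated as Lea14-A.

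**Figure D5:**
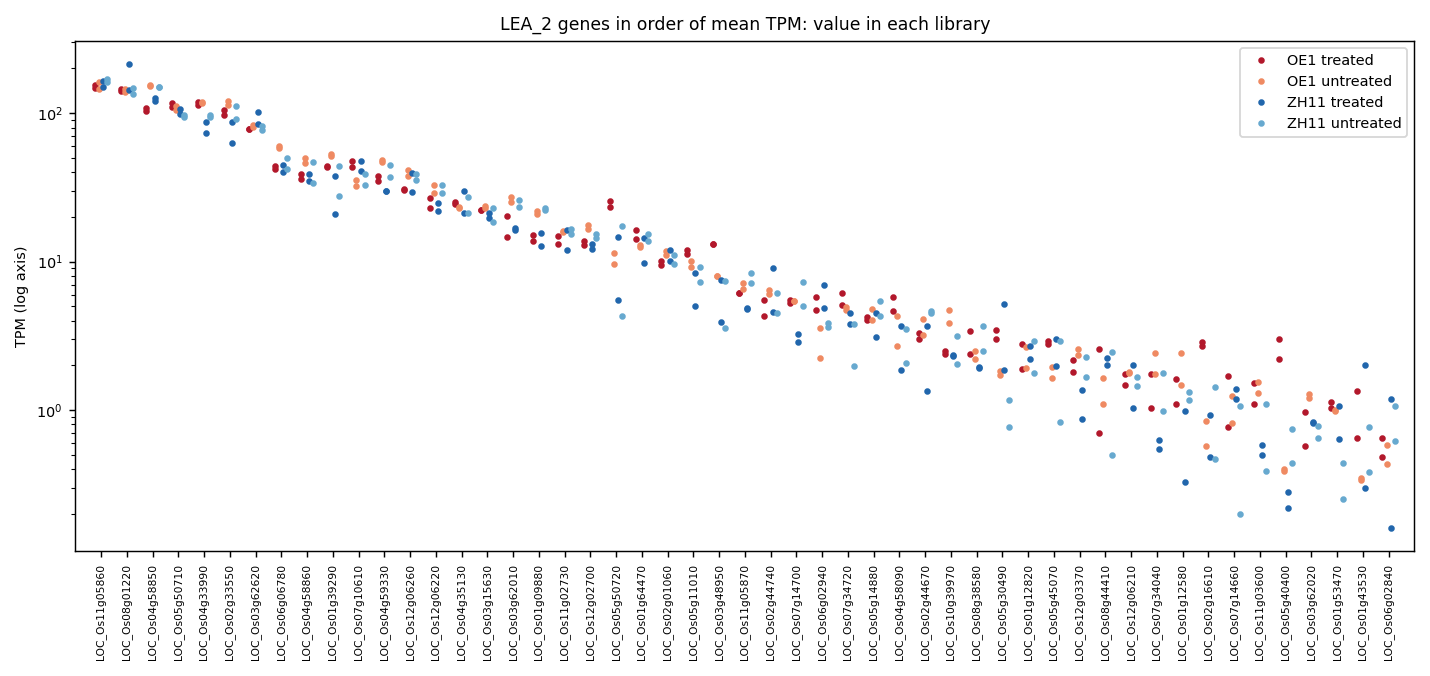
Level in TPM (vertical axis, log scale) of the 51 LEA_2 genes in each of the 8 libraries, in order of mean level (horizontal axis). Points are libraries coloured by group; gene means run from 157 TPM at the left to 0.65 TPM at the right.

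LOC_Os11g05860 had 148 and 155 TPM in treated OE1, 161 and 145 TPM in untreated OE1, 151 and 166 TPM in treated ZH11 and 163 and 169 TPM in untreated ZH11. LOC_Os08g01220 had 146 and 141 TPM in treated OE1, 146 and 139.6 TPM in untreated OE1, 143 and 215 TPM in treated ZH11 and 134 and 147 TPM in untreated ZH11. LOC_Os04g58850 had 108 and 103 TPM in treated OE1, against 153 and 155 TPM in untreated OE1, and 126 and 121 TPM in treated ZH11, against 151 and 149 TPM in untreated ZH11. Its groups did not overlap in either genotype, and its log2 folds on treatment were -0.54 ± 0.12 in OE1 (adjusted p 0.154) and -0.28 ± 0.12 in ZH11 (adjusted p 0.395).

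LOC_Os05g50710 and LOC_Os05g50720 are neighbours and were unlike in their spread. LOC_Os05g50710 had 111 and 117 TPM in treated OE1, 111 and 106 TPM in untreated OE1, 99.0 and 107 TPM in treated ZH11 and 97.6 and 94.3 TPM in untreated ZH11. LOC_Os05g50720 had 25.5 and 23.5 TPM in treated OE1, against 11.5 and 9.61 TPM in untreated OE1, and 14.6 and 5.52 TPM in treated ZH11, against 17.3 and 4.28 TPM in untreated ZH11. Its log2 fold on treatment was 1.15 ± 0.60 in OE1 (adjusted p 0.678). In the authors' deposited table for treated over untreated OE1 it has a log2 fold of 1.25 with an adjusted p of 1.05e-06, from 375 and 405 estimated counts in treated OE1, against 189 and 156 in untreated OE1.

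Other LEA_2 genes with large folds missed the call. LOC_Os01g09880, NDR1/HIN1-like, had 13.7 and 15.0 TPM in treated OE1, against 21.0 and 22.0 TPM in untreated OE1, and 12.7 and 15.5 TPM in treated ZH11, against 22.1 and 23.0 TPM in untreated ZH11. Its log2 folds were -0.55 ± 0.16 in OE1 (adjusted p 0.26) and -0.65 ± 0.16 in ZH11 (adjusted p 0.179), so that it was lower in treated libraries of each genotype. LOC_Os07g14700 had 5.25 and 5.51 TPM in treated OE1, against 5.43 and 5.45 TPM in untreated OE1, and 3.27 and 2.87 TPM in treated ZH11, against 4.99 and 7.28 TPM in untreated ZH11. LOC_Os03g48950 had 13.2 and 13.1 TPM in treated OE1, against 7.50 and 3.93 TPM in treated ZH11, a log2 fold of 1.13 ± 0.34 with an adjusted p of 0.217. LOC_Os01g39290 had 53.2 and 51.2 TPM in untreated OE1, against 44.0 and 27.9 TPM in untreated ZH11, and LOC_Os06g02940 had 4.69 and 5.74 TPM in treated OE1, against 2.23 and 3.56 TPM in untreated OE1.

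Lists of other genes tied to water deficit and abscisic acid held 1 called gene over the 5 comparisons. It was the BURP domain gene LOC_Os05g12630, which had 49.8 and 56.4 TPM in treated OE1, against 19.8 and 13.8 TPM in treated ZH11, and 35.3 and 29.9 TPM in untreated OE1, against 41.9 and 35.7 TPM in untreated ZH11. Its log2 fold in treated seedlings was 1.62 ± 0.20 with an adjusted p of 0.0182 in limma. It was 1 of 9 BURP genes past the filter, and 0.799% of all genes were called higher in that comparison. Whether this call holds under the alternatives was not tested. No member was called of the 6 ASR, 15 HVA22, 6 AWPM-19, 7 Di19, 1 oleosin, 6 caleosin, 7 carotenoid cleavage dioxygenase or 7 raffinose synthase genes, of the 10 trehalose-6-phosphate synthase and 17 trehalose phosphatase genes, which share 10, or of the 10 SAPK kinase, 5 PYL receptor and 2 P5CS genes past the filter. In the comparison of untreated OE1 with untreated ZH11 the medians of these lists ran from -0.11 (ASR) to 0.15 (Di19), beside 0.79 for dehydrins. A list of abscisic acid hydroxylases matched 0 genes.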

How the data were processed

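RNA from whole seedlings was sequenced with the SMARTER mRNA-Seq kit, per the labels' protocols. The authors deposited TPM per gene and library. The authors' deposited tables of called genes give an estimated count per library, a log2 fold and an adjusted p-value for listed genes only, and their test is not given in the sources used here. The deposited read tables give counts of reads and the percent GC, per the file headers. Cufflinks 2.2.1 appears in the submitters' processing notes without a stated role. The aligner, counting strand and build are not given in the sources used. Gene identity, domains and names came from the deposited matrix, and chromosomes from locus identifiers. The supplied RefSeq table did not match these identifiers, and 1 line of the matrix had been emptied.

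Genes at 1 TPM or more in at least 2 of 8 libraries were kept, and limma 3.58.1 in R 4.3.3 fitted 4 group means to log2(TPM + 1) with an eBayes trend. The 5 contrasts were each adjusted over 25281 genes by Benjamini-Hochberg. TMM factors came from edgeR 4.0.16. The script was tested on simulated data. Depth was 42137208 to 56535764 reads; TPM keep no depth, so no counting intervals are given. Named genes were every gene of families with at most 12 members and, in LEA_2, called genes, the 4 most abundant and the 2 largest folds per contrast where the higher group averaged 5 TPM or more. The gene families and the other lists were chosen with earlier results of these data known. Counts of groups without overlap and their alternatives were chosen after seeing the data. Alternatives changed the scaling, pseudocount, filter, fit, gene-length gradient, read length, weights and libraries.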

Additional observations from a re-analysis of the deposited data

Results flagged for a closer look

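In 6 of the 73 genes every treated library lay on one side of every untreated library in OE1 and on the opposite side in ZH11, which 4.81% of all genes did. The count includes LOC_Os05g40400 and LOC_Os03g62020, which reached 1 TPM only in the treated and only in the untreated OE1 libraries and so passed the filter only through the group in which they were high; their values are a description. The values below are the difference of the treatment effects, OE1 minus ZH11, on the log2 scale, and none passed the limma call. It was -1.59 for the dehydrin gene RAB16D (LOC_Os11g26750) and -1.44 for the LEA_4 gene LOC_Os03g07180, with adjusted p of 0.298 and 0.405. It was -0.69 for LEA19 (LOC_Os05g46480, adjusted p 0.784) and 1.70 for the LEA_2 gene LOC_Os05g40400 (adjusted p 0.349). The LEA_2 genes LOC_Os03g62020 and LOC_Os03g62620, named here after their values were seen, had -0.45 and -0.28 (adjusted p 0.805 each). LOC_Os03g62020 had 0.57 and 0.97 TPM in treated OE1, against 1.21 and 1.29 TPM in untreated OE1, and 0.82 and 0.83 TPM in treated ZH11, against 0.78 and 0.65 TPM in untreated ZH11. LOC_Os03g62620, matched to a cotton LEA14 protein, had 78.4 and 78.1 TPM in treated OE1, against 83.0 and 80.1 TPM in untreated OE1, and 84.8 and 102 TPM in treated ZH11, against 77.5 and 81.7 TPM in untreated ZH11.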

How the results depend on the processing

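Counts of called genes among the 73 depended on the settings, and the cause was not tested. For untreated OE1 against untreated ZH11, 1 was called, beside 0.443% of all genes. With TMM or median-of-ratios factors 2 were called (0.443% of all genes). With only the libraries compared, no eBayes trend or the length gradient removed 2 were also called (0.415% to 0.546%). With array weights 4 were called (0.874%). With a pseudocount of 0.1 or 5, a filter of 5 TPM or a term for read length 0 were called (0.265% to 0.368%). The filter of 5 TPM left RAB16D out of the test. For treated OE1 against treated ZH11, 1 was called, beside 0.953% of all genes. With a pseudocount of 0.1 or 5, a filter of 5 TPM or only the libraries compared 0 were called (0.174% to 0.822%). The same held with the length gradient removed, a term for read length or array weights (0.225% to 1.02%). The filter of 5 TPM left LOC_Os05g40400 out of the test. For treatment in OE1 (0 called), 6 were called with only the libraries compared, 5 with array weights, 2 with the length gradient removed, 2 with a term for read length and 1 without the trend, while the share of all genes called was 2.2%, 2.27%, 0.716%, 1.34% and 0.249%, beside 0.241% as reported. With 1 library left out at a time, where a lone library is taken to vary like the other groups, the counts ran from 0 to 2 for untreated OE1 against ZH11, from 0 to 11 for treated OE1 against ZH11, from 0 to 6 for treatment in ZH11, from 0 to 4 for treatment in OE1 and from 0 to 6 for the difference of effects. The 11 and both counts of 6 came without the first treated ZH11 library, which leaves the second, with its length gradient, alone; over all genes 15.2% were then called for treated OE1 against ZH11, 10.4% for treatment in ZH11 and 10.7% for the difference. The 4 came without either treated ZH11 library (1.35% and 1.34% of all genes).

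Genes with both OE1 libraries above both ZH11 libraries numbered 36 in untreated and 35 in treated seedlings (21.7% and 23% of all genes). The 36 include LOC_Os03g62020 and LOC_Os01g50700, and the 35 include LOC_Os05g40400 and LOC_Os01g50700. All of these passed the filter only through OE1 libraries. A filter of 5 TPM left 43 of the 73 genes, 21 and 22 of them without overlap (21.1% and 21.8% of 18481 genes). The count of dehydrins higher in untreated OE1 than ZH11 (7) was 5 under that filter, and the count of dehydrins lower on treatment in OE1 (5) was 4. That filter left out RAB16D and LOC_Os01g50700, and no dehydrin that remained lost its separation. Both counts, like the LEA_4 count in untreated seedlings (3), stayed within 1.5 times under the added alternatives. Leaving a library out can only keep or raise such a count, so those alternatives could not lower it. The 30 gene results followed were picked for a low adjusted p in the reported fit. Over 620 values under the alternatives, no direction changed, 25 values lost a call and 34 gained one. Several alternatives, such as array weights or no eBayes trend, leave the fold itself unchanged, so the direction could not change under them.

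Replicate numbers in the labels name libraries and were not shown to pair them: same-numbered libraries deviated together with correlations of -0.28 to 0.233. With the number as a replicate block, 0 of the 73 genes were called for OE1 against ZH11 in untreated and 0 in treated seedlings. Of all genes 0.301% and 0.514% were then called, beside 0.443% and 0.953% without the block. Depth behind single TPM values is known only for genes that the authors' deposited tables list with estimated counts. Low genes such as RAB16D rest on few reads, at 10 and 16 estimated counts in treated OE1.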
